A study of Mus musculus with 6 samples.

Results

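The miR-34/miR-449 family is a set of related miRNA genes that was chosen by name, and not by any measured value. It comprises mir-34a, mir-34b, mir-34c, mir-449a, mir-449b and mir-449c. Of these 6 genes, 5 had a row in the table of 898 miRNA genes, and mir-449b was not analysed here. Small RNA was sequenced from E14Tg2a cells, a mouse embryonic stem cell line. The 3 libraries of pluripotent embryonic stem cells (ESCs) came from cultures kept in leukemia inhibitory factor (LIF). The 3 libraries of neuronal cells (NCs) came from monolayers of the same line and passage range, deprived of LIF and exposed to retinoic acid (RA) at 1 µM over 48 hours. RNA came from pooled plates. The authors state separate processing of replicates for their mRNA sequencing, and do not state it for the small-RNA libraries. The label NC names this RA treatment; the cultures were not sorted, and in such bulk samples fewer cells of a type and less RNA per cell cannot be told apart.

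miRNAs guide the silencing of messenger RNAs mainly through their seed, the stretch near the 5′ end that pairs with the target, so miRNAs with one seed share many predicted targets. mir-34a and the mir-34b/mir-34c pair are textbook targets of the tumor suppressor p53 (Trp53 in the mouse), and they restrain cell-cycle and survival genes. The mir-449 genes lie in an intron of Cdc20b, carry the same seed, and are best known, together with mir-34b and mir-34c, from multiciliated epithelium and testis, where they act in the formation of motile cilia.

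The mature sequences show why these genes are treated as a family. RefSeq sequences on build GRCm38 were matched by gene symbol for 5 of the 6 genes, and the 5p arms held for 4 of them are given 5′ to 3′ with the seed, bases 2 to 8, in capitals.
miR-34a-5p: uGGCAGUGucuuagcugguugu
miR-34b-5p: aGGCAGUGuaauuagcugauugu
miR-449a-5p: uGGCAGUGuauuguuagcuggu
miR-449c-5p: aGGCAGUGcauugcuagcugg

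All 4 carried the seed GGCAGUG, and among 1738 mouse mature miRNAs in the same RefSeq set no others did. This set held no 5p arm of mir-34c, so that arm could not be counted. The hairpin of mir-34c also held these 7 letters once, from position 14. The 5p arms were compared letter by letter over their whole length, seed included, without gaps. miR-34a-5p and miR-449a-5p were identical at 15 of 22 positions, miR-34a-5p and miR-34b-5p at 11 of 22, and miR-449a-5p and miR-449c-5p at 18 of 21. miR-34b-5p has 23 bases and miR-34a-5p 22, so an added base can lower their count. No comparison with gaps was made. The longest run shared by any 5p pair was 9 nucleotides, and that shared by any pair of hairpins was 11. The 3p arms are printed because only mir-34b and mir-34c have a common 3p seed.
miR-34a-3p: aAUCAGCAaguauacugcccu
miR-34b-3p: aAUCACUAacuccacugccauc
miR-34c-3p: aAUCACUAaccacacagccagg
miR-449a-3p: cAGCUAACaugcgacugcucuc
miR-449c-3p: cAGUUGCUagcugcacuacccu

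miR-34b-3p and miR-34c-3p shared the seed AUCACUA and 17 of 22 positions. miR-34a-3p matched miR-34b-3p at 15 of 21 positions and miR-34c-3p at 13 of 21. The mir-449 3p arms matched miR-34b-3p and miR-34c-3p at 3 to 11 of 22. The table gave 1 value per hairpin gene, so the reads of the 2 arms were not separated.

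The 5 genes lie at 3 loci of GRCm38, the build that corresponds to mm10 in the submitters' processing notes. mir-34a (chromosome 4, 150068454 to 150068555, plus strand) lies in an exon of the annotated transcript Gm37795, and the nearest protein-coding gene is Gpr157. mir-34c (chromosome 9, 51103034 to 51103110) and mir-34b (51103562 to 51103645) lie on the minus strand, 451 bases apart, in an intron of Btg4, which is on the opposite strand. mir-449c (chromosome 13, 113035983 to 113036091) and mir-449a (113037534 to 113037624) lie on the plus strand, in an intron of Cdc20b on the same strand, with 1442 bases between them.

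The measurements were the authors' group means of normalised read counts, from which the whole reads of each library were recovered by enumeration. The libraries were given the letters A, B and C from the largest size factor to the smallest within a group, and have no link to replicate numbers. All 5 genes were resolved in all 6 libraries. The resolved reads of all miRNAs numbered 82310 to 327134 per library. They covered 11.1% of the ESC signal and 9.41% of the NC signal, since the most abundant miRNAs were not resolved. The smallest library of each group, C, was set against A and B, but no like deviation was computed for A or B. Among 231 miRNAs with a mean of at least 20 in both groups, its log2 deviation from the mean of A and B had quartiles of -0.77 and 0.62 in the ESC group, and of -0.79 and 0.60 in the NC group, so that results are given with and without it. The labels were checked against 3 fixed lists: 11 of 11 pluripotency miRNAs had the higher mean in ESCs, and 6 of 6 neural miRNA genes and both mir-10a and mir-10b had the higher mean in NCs. These counts were not set against the share of all miRNAs. The neural list held mir-9 and mir-124 genes, and its summed mean was 1272 in ESCs and 2319 in NCs. Its mir-124 genes were near the floor, with means of 2.09 to 2.70 in ESCs and 5.19 to 6.02 in NCs, and 1 to 4 reads in each ESC library. The authors' means of mir-302a, mir-302c and mir-302d, markers of pluripotency, were 299, 96.3 and 156 in ESCs, against 15.0, 4.96 and 12.3 in NCs, while mir-302b was at 6.84 in ESCs and listed at 0 in NCs.

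mir-34c was the most abundant member in every library, followed by mir-34a; the mature forms are of like length, and reads are not scaled by it. Its authors' mean was 1269 normalised counts in ESCs and 2271 in NCs, which ranked 56th and 43rd of the 898 genes. In the same means mir-34a ranked 82nd in both groups, mir-34b 218th and 178th, mir-449a 241st and 274th, and mir-449c 351st and 413th. The order mir-34c, mir-34a, mir-34b, mir-449a held in 6 of 6 libraries. The step from mir-34b to mir-449a was within the spread of the ESC libraries (47.0 ± 20.6 against 34.8 ± 19.5, SD, n = 3), and the lowest ESC value of mir-34c, 791 normalised reads, was below the highest of mir-34a, 803. The other neighbouring pairs did not overlap in ESCs, and none overlapped in NCs. mir-449c lay below mir-449a in all 6 libraries, by the smallest margin in ESC library C.

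**Figure D1:**
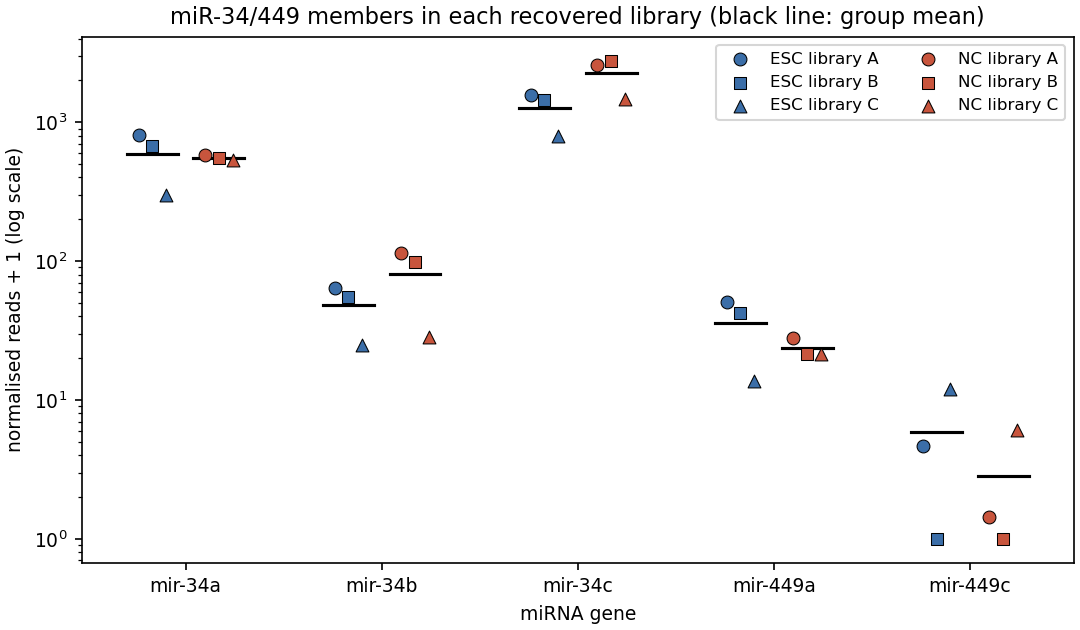
Normalised reads plus 1 (log axis) of the 5 miR-34/miR-449 genes in each recovered library, blue for ESCs and red for NCs, with the marker shape giving library A, B or C and a black line at the group mean. Library C is the lowest of its group for mir-34b and mir-34c in both groups, and mir-34c is the highest member throughout.

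mir-34c and mir-34b, the pair that shares a locus, were higher in NCs in the deeper libraries. For mir-34c, ESC libraries A, B and C held 1561, 1454 and 791 normalised reads, and NC libraries A, B and C held 2572, 2770 and 1471. NC libraries A and B were above all ESC libraries, but NC library C lay between ESC libraries B and A, so the groups overlapped. The ratio of the authors' means was 1.79-fold (1269 ± 417 against 2271 ± 700, SD, n = 3). mir-34b held 62.9, 54.4 and 23.7 normalised reads in ESC libraries A, B and C and 113.6, 97.3 and 27.4 in NC libraries A, B and C. Here NC libraries A and B stood above all ESC libraries and NC library C fell between ESC libraries B and C. The ratio of its means was 1.69-fold (47.0 ± 20.6 against 79.4 ± 45.8, SD, n = 3), and library C rested on 13 reads in ESCs and 16 in NCs.

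mir-449a, an intronic miRNA of Cdc20b, went the other way in the deeper libraries. It held 49.9, 41.6 and 12.8 normalised reads in ESC libraries A, B and C and 26.9, 20.5 and 20.5 in NC libraries A, B and C. ESC library C was the lowest of all 6, on 7 reads, while the other 2 ESC libraries were the highest. Its mean was 1.54-fold higher in ESCs (34.8 ± 19.5 against 22.6 ± 3.68, SD, n = 3). mir-449c, its neighbour, was at the edge of detection. It held 6, 0 and 6 reads in ESC libraries A, B and C and 1, 0 and 3 in NC libraries A, B and C, where a count of 0 allows up to 3 reads, or 3.20 normalised reads in ESC library B and 3.07 in NC library B. These 12 and 4 reads did not pass the filter for testing, and without the filter the limma adjusted p was 0.784, so a difference was not detectable at this depth.

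mir-34a, a direct target of p53, had similar means in the groups but not the same spread. It held 803, 675 and 296 normalised reads in ESC libraries A, B and C and 580, 548 and 533 in NC libraries A, B and C. All NC libraries lay inside the ESC range, between ESC libraries C and B. Its means were 591 ± 264 in ESCs and 554 ± 23.8 in NCs (SD, n = 3). In ESCs library C deviated from A and B by -1.32 on the log2 scale, and in NCs by -0.08.

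Across all 6 libraries none of the 4 members tested was called by limma-voom at an adjusted p under 0.05, where 49 of 315 miRNAs (15.6%) were called. At an unadjusted p under 0.05 the members' count was also 0, against 81 of 315 miRNAs (25.7%). The log2 difference, NC minus ESC, was 0.85 for mir-34c (SE 0.41, 95% confidence interval -0.11 to 1.82, limma adjusted p = 0.252) and 0.63 for mir-34b (SE 0.59, -0.77 to 2.04, 0.629). It was -0.58 for mir-449a (SE 0.49, -1.73 to 0.58, 0.568) and 0.10 for mir-34a (SE 0.42, -0.89 to 1.09, 0.913). These intervals include both no difference and changes of over 2-fold. Leaving out 1 library moved the log2 differences without a call. mir-34c ranged from 0.52 without ESC library C to 1.15 without NC library C, and mir-34b from 0.26 without NC library A and 0.36 without ESC library C to 1.06 without NC library C. mir-449a ranged from -0.96 without ESC library C to -0.16 without ESC library A, and mir-34a from -0.41 without ESC library C, a change of sign, to 0.36 without ESC library A and 0.28 without ESC library B. The libraries of the groups overlapped for all 4, where those of 98 of the 315 miRNAs (31.1%) did not. Their 4 differences ranged from -0.58 to 0.85, around a median of -0.06 over the 315.

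With the library set, C against A and B, as a covariate, 2 members were called, both higher in NCs. In that fit 74 of 315 miRNAs (23.5%) were called higher and 67 (21.3%) lower. mir-34c differed by 0.84 (SE 0.12, limma adjusted p = 0.000268) and mir-34b by 0.77 (SE 0.18, limma adjusted p = 0.00683). mir-449a differed by -0.74 (SE 0.27) and missed the threshold (limma adjusted p = 0.0513), and mir-34a by 0.02 (SE 0.23, limma adjusted p = 0.945). The set rests on depth rank alone, since no label ties ESC library C to NC library C, and the covariate takes the shift of library C as equal in ESCs and NCs. For mir-34c that shift was -0.93 and -0.86, for mir-34b -1.27 and -1.91, for mir-449a -1.76 and -0.20, and for mir-34a -1.32 and -0.08.

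Without library C of each group, all 4 members were called, 2 in each direction. In these 4 libraries, 91 of 323 miRNAs (28.2%) were called higher in NCs and 69 (21.4%) lower, so a call was frequent there. mir-34c rose by 0.81 (SE 0.12, limma adjusted p = 4.89e-05) and mir-34b by 0.84 (SE 0.18, limma adjusted p = 0.00151) on the log2 scale. mir-449a changed by -0.91 (SE 0.24, limma adjusted p = 0.00698) and mir-34a by -0.39 (SE 0.14, limma adjusted p = 0.0316). In the pair of C libraries, which allows no test, the log2 difference was 0.89 for mir-34c and 0.20 for mir-34b, but 0.68 for mir-449a and 0.85 for mir-34a, the reverse of the deeper libraries for the last 2. Whether the differences of the 2 sets of libraries differ was not tested. Over the 12 alternatives run (11 for mir-449a), the limma adjusted p ranged from 4.89e-05 to 0.598 for mir-34c, from 0.00151 to 0.889 for mir-34b, from 0.00698 to 0.946 for mir-449a and from 0.0316 to 0.990 for mir-34a.

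**Figure D2:**
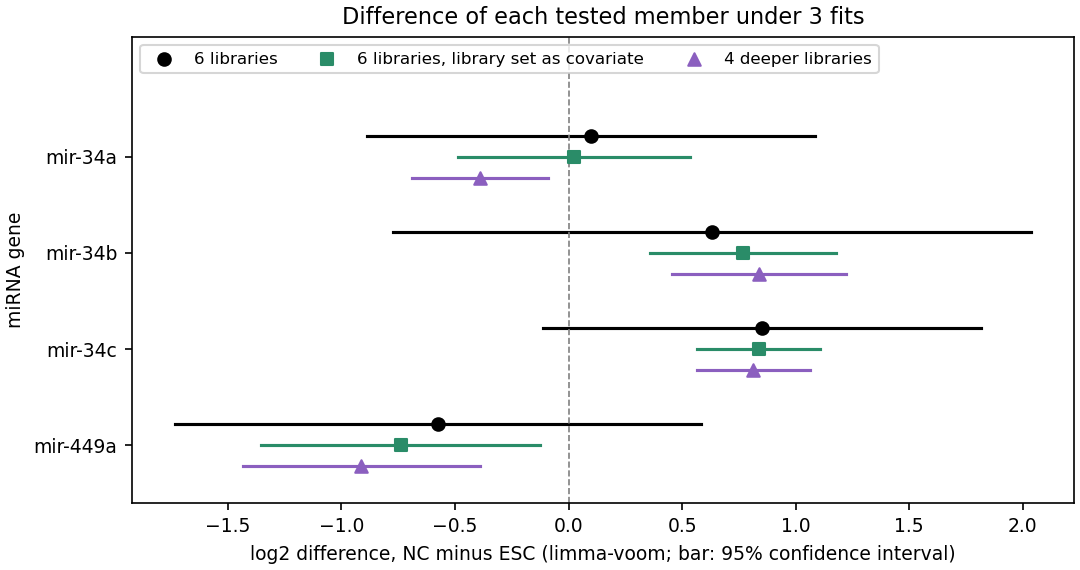
Log2 difference of NCs minus ESCs by limma-voom (x axis) for the 4 tested members, with 95% confidence intervals as bars, from all 6 libraries, from all 6 with the library set as covariate, and from the 4 deeper libraries. The intervals of mir-34b and mir-34c lie above 0 in the last 2 fits and include 0 in the first, and mir-34a lies below 0 only in the deeper libraries.

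The scaling between groups moved all members together. mir-10a had an authors' mean of 2136 in ESCs and 754551 in NCs, and setting both groups to equal totals with or without it shifted the log2 differences by -0.48 or 0.44. On the scale log2(mean + 1), mir-34c then differed by 0.36 or 1.28, mir-34b by 0.28 or 1.18, and mir-449a by -1.05 or -0.18, so these 3 kept their sign. mir-34a differed by -0.09 as deposited, and by -0.57 or 0.34 under these totals, so that it has no fixed direction.

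Ratios between members within a library need no scaling. mir-34c and mir-34b are processed from a shared primary transcript, and their read ratio was 24.8, 26.7 and 33.3 in ESC libraries A, B and C and 22.6, 28.5 and 53.8 in NC libraries A, B and C. The ratio was 28.3 ± 4.45 in ESCs and 35.0 ± 16.5 in NCs (SD, n = 3), and the log2 ratio did not differ beyond the spread (exact permutation test, two-sided, p = 0.8, where the smallest p this design allows is 0.1). The highest ratio came from NC library C, with 16 reads of mir-34b. The other ratios were chosen after the values were seen, and are given without a test. mir-34c to mir-34a was 1.94, 2.15 and 2.67 in ESC libraries A, B and C and 4.43, 5.06 and 2.76 in NC libraries A, B and C, a narrow lack of overlap set by the C libraries. mir-34c to mir-449a was 31.3, 34.9 and 61.9 in ESCs, against 95.7, 135 and 71.7 in NCs, again without overlap. This lack of overlap was also narrow, since library C rested on 7 reads of mir-449a in ESCs and 12 in NCs. Both of these ratios rest on mir-34c, and how often ratios of other miRNA pairs lack overlap was not computed. mir-34b to mir-449a was 1.26, 1.31 and 1.86 in ESCs, against 4.23, 4.75 and 1.33 in NCs, where the groups overlapped through NC library C. mir-34a to mir-449a was 16.1, 16.2 and 23.1 in ESCs, against 21.6, 26.8 and 26.0 in NCs, and these groups overlapped too.

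**Figure D3:**
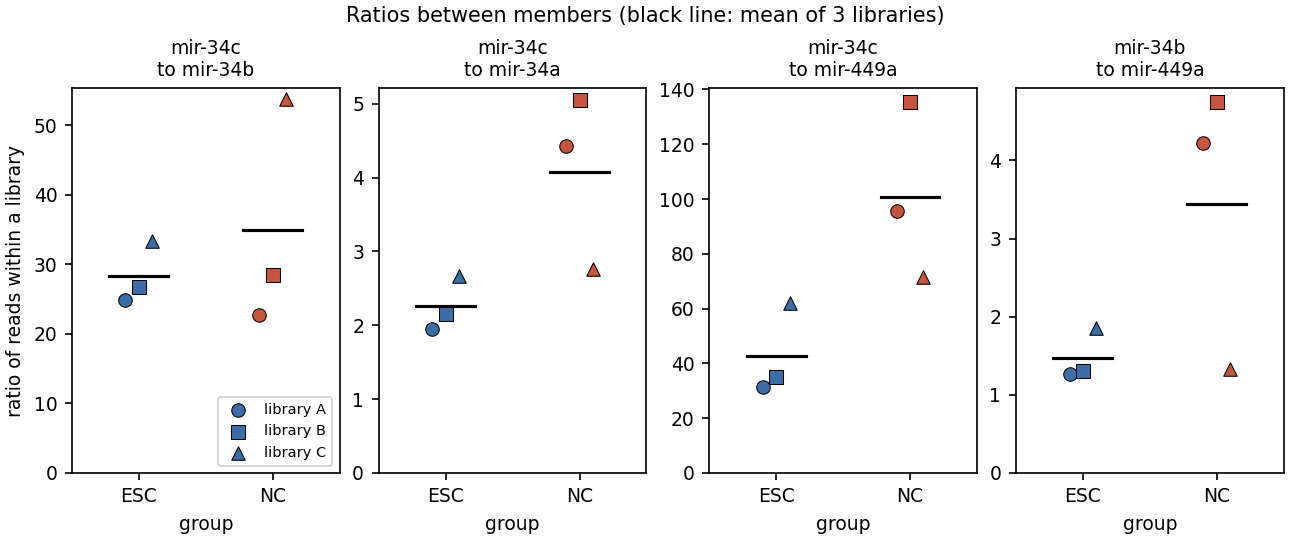
Ratio of reads of 1 member to another within each recovered library (y axis, from 0) for ESCs in blue and NCs in red, with marker shapes for libraries A, B and C and a black line at the mean of 3. The ratios of mir-34c to mir-34a and to mir-449a are above all ESC values in the 3 NC libraries, with library C nearest to the ESC values, whereas mir-34c to mir-34b overlaps. In library C, mir-449a has 7 reads in ESCs and 12 in NCs.

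The summed signal of the 5 members, which share the 5p seed letters, was dominated by mir-34c. The sum was 2480, 2225 and 1134 normalised reads in ESC libraries A, B and C and 3292, 3435 and 2057 in NC libraries A, B and C. NC library C was below ESC libraries A and B, so the sums overlapped, and the log2 ratio of the summed means was 0.59 (1947 ± 715 against 2928 ± 758, SD, n = 3). mir-34c made up 62.9% to 69.7% of the sum in ESC libraries and 71.5% to 80.6% in NC libraries. The share of mir-34a was 26.1% to 32.4% in ESCs and 15.9% to 25.9% in NCs. Against all miRNAs, the family held 0.169% of the summed means in ESCs and 0.183% in NCs. The log2 ratio of the sums was thus 0.11 at equal totals, but 1.03 at equal totals without mir-10a.

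**Figure D4:**
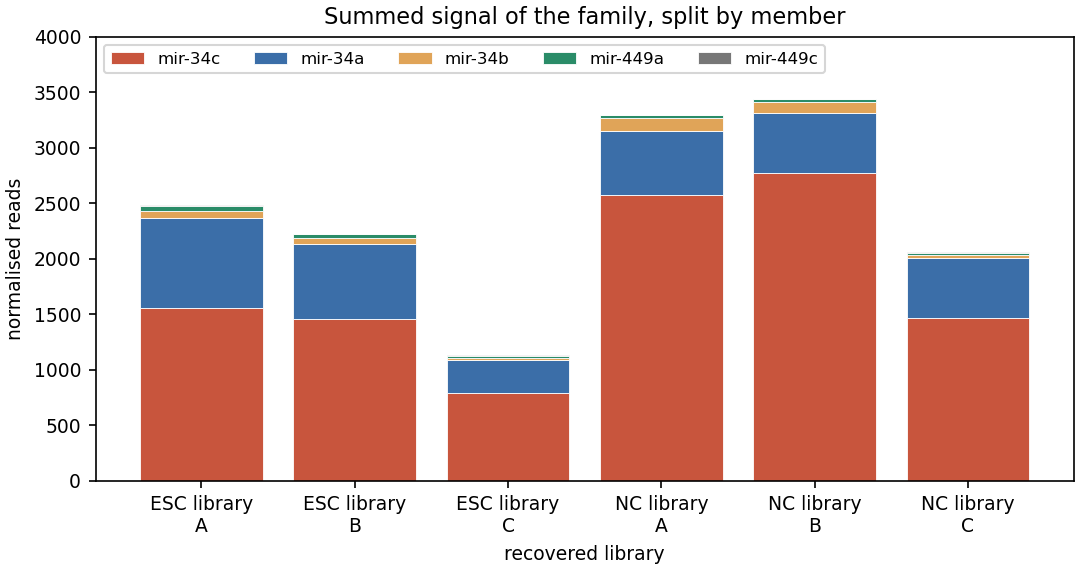
Summed normalised reads of the miR-34/miR-449 members (y axis, from 0) in each of the 6 recovered libraries, stacked by member. mir-34c takes the largest part of every bar, and library C is the shortest bar of each group.

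Patterns were compared with that of mir-34c by Pearson's correlation of log2(normalised reads + 1) over the 6 libraries. The 282 miRNAs with a mean of at least 10 in both groups included mir-34c itself, mir-34a, mir-34b and mir-449a. The closest outside the family were mir-17 (r = 0.992), mir-218-1 (0.986) and mir-218-2 (0.975). mir-17, of the miR-17-92 cluster, held 3135, 2985 and 1924 normalised reads in ESC libraries A, B and C and 4570, 4531 and 3266 in NC libraries A, B and C. Within the family, r with mir-34c was 0.895 for mir-34b, 0.562 for mir-34a and 0.293 for mir-449a. These points share library, depth and library set, so the values describe these 6 libraries only. The order places mir-34b, from the same locus, nearest to mir-34c among the members.

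Other miRNAs known to be transcribed or processed under p53 were taken from a list of 13, of which 12 had a row and 11 were above 0 in at least 1 group. mir-143 was listed at 0 in both groups. Of 8 tested, 0 were called by limma-voom across the 6 libraries, against 15.6% of all miRNAs, and 1, mir-145a, had an unadjusted p under 0.05 (limma adjusted p = 0.101), against 25.7% of all miRNAs. The median log2 difference of the 8 was -0.17, and -0.06 over all 315. With the library set as covariate, 1 of 8 was called higher and 2 lower, against 23.5% and 21.3% of all miRNAs.

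The called ones were mir-15a, which acts against cell-cycle and survival genes, and mir-145a and mir-141. mir-15a differed by 0.40 (SE 0.13, limma adjusted p = 0.0288) with the covariate. It held 364, 373 and 194 normalised reads in ESC libraries A, B and C and 490, 495 and 248 in NC libraries A, B and C, and NC library C fell inside the ESC range. mir-145a, which p53 promotes at the level of processing, differed by -0.80 (SE 0.16, limma adjusted p = 0.00221) with it. It held 112.8, 93.9 and 133.4 normalised reads in ESC libraries A, B and C and 56.8, 57.3 and 87.2 in NC libraries A, B and C, without overlap, as in 31.1% of all miRNAs tested. mir-141, of the epithelial miR-200 family, differed by -1.15 (SE 0.24, limma adjusted p = 0.00343) with the covariate. It held 60.4, 58.7 and 31.1 normalised reads in ESC libraries A, B and C and 31.6, 24.6 and 5.13 in NC libraries A, B and C, and NC library A was just above ESC library C. Over the alternatives the limma adjusted p ranged from 0.0183 to 0.968 for mir-15a, from 0.000815 to 0.385 for mir-145a and from 0.00150 to 0.497 for mir-141.

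The most abundant of the list were mir-16-1, mir-192 and mir-15a. mir-16-1 had authors' means of 10409 in ESCs and 12330 in NCs, was not resolved into libraries, and shares its mature sequence with mir-16-2. mir-192 had means of 2133 and 1758 and a log2 difference of -0.37 (SE 0.69, limma adjusted p = 0.814), with 928 and 592 normalised reads in the C libraries against 2312 to 2904 in the others. mir-15a had means of 310 in ESCs and 411 in NCs.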

How the data were processed

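Small-RNA libraries of mouse ESCs and NCs (3 each, grouped by sample title) were analysed. The authors deposited 1 table whose signal columns are group means of read counts divided by size factors. The submitters' processing notes name DESeq and mm10. Adapter removal, aligner and counting rules were not given in the sources used here, and these set how reads shared by related hairpins were split. The table's fold changes and p-values were not used.

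Since 1 read of each library adds a fixed step to a mean, enumeration gave back the reads, in ESCs for 526 of the 549 miRNAs detected and in NCs for 580 of the 602. The procedure was tested on simulated data. In limma 3.58.1 with voom weights (R 4.3.3), miRNAs with at least 10 reads in 3 libraries (2 where a group had 2) were fitted on the group, with the recovered size factors and Benjamini-Hochberg adjustment over all miRNAs tested at 0.05. Confidence intervals are at 95%. A pseudocount of 1 was added to group means. Depth limits genes with few reads, and floors of 3 reads cover counting error only. Other steps used scipy 1.17.1 and pandas 2.3.3 in Python 3.11.15.

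Members, lists, tests and alternatives were chosen with earlier results of these data known. Named miRNAs were all members, the p53-linked miRNAs that were called or were the 3 most abundant, the 3 closest in pattern to mir-34c, and mir-10a and mir-10b as a check of the labels with the mir-302 genes. Outside this rule, mir-143 was named after its values were seen, mir-16-2 for a shared mature sequence, and mir-9 and mir-124 as the neural list. Alternatives covered the test, covariate, filter, scaling and libraries. TMM factors were computed from their definition in R. The p-values measure the spread between these replicate samples.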

Additional observations from a re-analysis of the deposited data

How the results depend on the processing

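Across all miRNAs, 49 calls became 141 with the library set as covariate, 160 in the deeper libraries and 30 with at least 10 reads in every library; the cause was not tested. Leaving out 1 library gave 17 to 52 calls, with 17 when ESC library A was dropped, 19 for ESC library B, 29 for NC library A and 22 for NC library B. Family calls rose from 0 to 2 with the covariate and 4 in the deeper libraries, where mir-34a reversed to -0.39, and were 0 in each fit without 1 library, although mir-34a also turned to -0.41 without ESC library C. The p53-linked calls rose from 0 to 3 in both of these fits and to 1 with TMM factors (54 calls over all miRNAs), and ranged from 0 to 1 without 1 library (mir-145a, without NC library C). The log2 ratio of mir-34c to mir-34b, NC minus ESC, was 0.22 and ranged from -0.14 (without NC library C) to 0.48. The log2 ratio of the family sums ranged from 0.32 to 0.80 without 1 library, and was 0.11 and 1.03 at equal totals with and without mir-10a. No paired analysis was possible because letters A to C cannot be tied to replicate numbers.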
